A study of Mus musculus with 2 samples.

Results

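The genes of the BCL2 family, the caspases, the inhibitor of apoptosis proteins (IAPs) and their direct partners were examined in cultured mouse hepatoblasts at passage 20 and at passage 5. The set was chosen by gene name on the array, and it held 42 of the 20054 named genes, covered by 70 probes on 106 spots. Of these 42 genes, 32 passed the scanner's background test on 1 array or both and are called measured here, 31 of them on both arrays.

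The cells were expandable hepatoblasts, bipotent progenitors of the liver, of strain C57BL/6. At both passages they grew in the same defined medium, DMEM/F12 with insulin, transferrin and selenite, nicotinamide, an ascorbic acid phosphate, albumin and antibiotics. It also held EGF, LPA, S1P and the small molecules CHIR99021, which blocks GSK3, and E-616452, which blocks TGF-beta receptor kinase signalling. The labels give Matrigel or laminin as the surface without saying which array's cells grew on which. Total RNA of passage 20 cells and of passage 5 cells was hybridised to 1 single-colour Agilent array each, and the passages came from separate experiments per the labels. Effects of passage and of experiment cannot be told apart, and no difference below has a replicate check, a standard error between cultures or a p-value.

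Apoptosis through mitochondria is set by the balance within the BCL2 family. Antiapoptotic members hold the pore-forming effectors BAX, BAK and BOK in check, and BH3-only proteins, which respond to lost growth factors, lost adhesion or DNA damage, relieve or override that hold. Released cytochrome c then joins APAF1 to activate caspase 9, while death receptors activate caspase 8 through FADD. Both routes end in the executioner caspases, which IAPs bind or mark for degradation and which DIABLO frees by binding IAPs. Hepatocytes are known for their dependence on BCL-XL and MCL1 and for the need of BID in death receptor signalling.

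Values are relative signals, that is, a probe's signal divided by the 75th percentile of all gene probes on its array. That percentile was a signal of 852.9 at passage 20 and 1085 at passage 5. Differences are log2 differences, passage 20 minus passage 5, and a gene is counted as higher or lower from 2-fold on. The share of gene probes well above background was 46.1% at passage 20 and 45.5% at passage 5, no spot was saturated, and the arrays shared a slide and a scan. Of 12 hepatoblast markers 9 were measured, with 1 higher at 2-fold (the adhesion gene Cdh1, 1.53 log2) and 1 lower (the progenitor marker Epcam, -1.17 log2). Their summed relative signal, 896.3 at passage 20 and 937.5 at passage 5, was mostly that of the keratins Krt8, Krt18 and Krt19. Krt19 and Sox9, markers of duct fate, differed by -0.52 and -0.51 log2, Afp, a fetal liver gene, by 0.09 and the liver regulators Hnf4a and Foxa2 by -0.21 and -0.11, while the fetal marker Dlk1 and the hepatocyte genes Alb and Ttr were above background on neither array. No marker of endothelial cells was above background on either array (0 of 8). Of 8 fibroblast markers 2 were measured: Acta2 differed by -0.10 log2 and Dcn was at least 15.9-fold lower at passage 20. Their list's summed relative signal was 25.5 at passage 20 and 28.9 at passage 5, nearly all of it Acta2 (25.2 and 27.0 at those passages), and the part of such cells in the results below was not tested.

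Of the 32 measured apoptosis genes, 1 was at least 2-fold higher at passage 20, the caspase gene Casp4, and 4 were at least 2-fold lower, namely Bcl2l15, Bcl2l11, Bbc3 and Bmf. Among all 11798 measured genes, 3.26% were higher and 5.74% lower at 2-fold, so the single higher gene (3.125% of the set) stands at the background share and the 4 lower genes (12.5%) above it. The second reading depends on the choice of probe: when probes of a gene were averaged, 2 of the genes (6.25%) were lower, against 5.56% of all genes. The median difference of the 32 genes was 0.19 log2, against 0.07 over all measured genes. The direction differed by role. With the scaling used here, the effectors and 5 of 6 BH3-only genes lay below 0. Bad is among those 5, from a probe that may not report Bad itself. The antiapoptotic genes other than Mcl1, the initiator caspases, the IAPs and the adaptors lay above 0. With the same scaling 42.4% of all measured genes lay below 0. Some genes above 0 were close to it, such as Xiap at 0.04 log2 and Casp8 at 0.10 log2. Because this was bulk RNA, fewer cells of a type and less RNA per cell cannot be told apart.

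**Figure D1:**
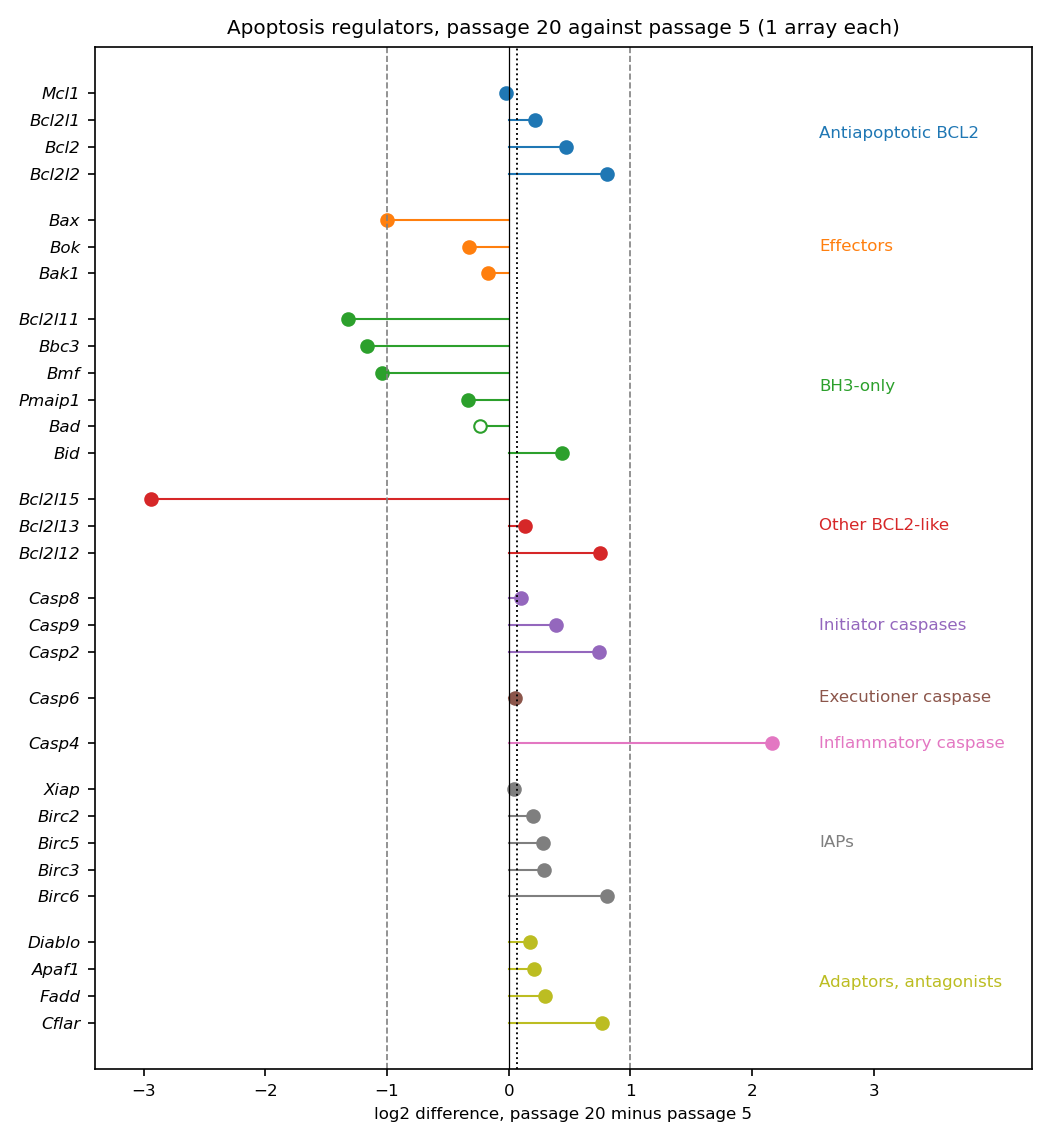
Log2 difference, passage 20 minus passage 5, of 30 measured genes (1 array per passage), grouped by role. Dashed lines mark 2-fold, the dotted line marks the median of all measured genes (0.07), and the open point is a bound. Bcl2l15 (-2.94) and Casp4 (2.16) stand farthest out, and the effectors and 5 of 6 BH3-only genes lie left of 0. The open point is Bad, whose probe may not report Bad itself.

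With the brightest probe of each gene, most 2-fold differences of the set fell among the BH3-only genes. Of 8 on the array, 6 were measured, with a median difference of -0.69 log2. At passage 20, 3 of these 6 were at least 2-fold lower, as were 5.74% of all measured genes. This depends on the choice of probe. With the mean over probes, Bbc3 stayed past 2-fold (-1.16 log2), but Bcl2l11 (-0.80) and Bmf (-0.42) did not. The 6 include Bad, whose probe may not report it. Bcl2l11, which encodes BIM, a BH3-only protein able to bind every antiapoptotic member, had a relative signal of 2.01 at passage 20 and 5.03 at passage 5. This is a 2.50-fold lower level, a difference of -1.32 log2, at a probe on chr2:127988051-127988110 (mm9, plus strand).

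Bbc3, the gene of PUMA, a target of p53 and of FOXO factors, had a relative signal of 2.67 at passage 20 and 5.97 at passage 5. It was thus 2.24-fold lower (-1.16 log2), at its only probe, chr7:16903403-16903462 (mm9, plus strand). Bmf, whose product is held at the cytoskeleton and is linked to death after loss of adhesion, had a relative signal of 0.866 at passage 20 and 1.79 at passage 5, which is 2.06-fold lower (-1.05 log2; chr2:118354519-118354578, mm9, minus strand). Of the other BH3-only genes, Pmaip1 and Bid were within 2-fold. Pmaip1, the gene of NOXA, which binds MCL1, had 16.9 at passage 20 and 21.3 at passage 5 in relative signal (-0.33 log2). Bid, the BH3-only protein that caspase 8 cleaves, was the exception to the direction, with a relative signal of 11.9 at passage 20 and 8.81 at passage 5 (0.44 log2).

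Bad was barely detected, and by 1 of its 2 probes only. The probe designed to its RefSeq transcript, on the plus strand, was above background on neither array. It had 0.026 at passage 20 and 0.053 at passage 5 in relative signal. The other probe's signal of 0.110 at passage 20 was not well above background, and its 0.131 at passage 5 was. The difference given for Bad comes from that other probe and is only a bound, at least 1.18-fold lower. That probe is placed on the minus strand by the array file, whereas RefSeq has Bad on the plus strand, so it may not report Bad itself. It was the only one of 63 probes of these genes with a RefSeq strand to compare that lay on the opposite strand. Without it, 4 of 5 BH3-only genes were below 0, with a median of -1.05 log2. Bik and Hrk, BH3-only genes of restricted expression, were above background on neither array.

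Different probes of a gene did not always give the same size. The reported value is that of the brightest probe. A second Bcl2l11 probe, which spans an intron, gave 0.151 at passage 20 and 0.184 at passage 5 in relative signal, a difference of -0.28 log2. A second Bmf probe gave 0.135 at passage 20 and 0.118 at passage 5, a difference of 0.20 log2. Both second probes were dim, with signals close to the lowest that passed the background test. With the mean over the probes above background in place of the brightest probe, neither gene reached 2-fold (-0.80 log2 for Bcl2l11 and -0.42 for Bmf). The Bcl2l11 junction probe is shown because it reads the coding region of the BH3 helix itself: its capitals are the 15 bases that encode the conserved core of that helix, the stretch with which BIM binds its partners. The sequence is the 60-base probe as deposited, covering chr2:127972893-127983988 (mm9, plus strand).
Bcl2l11 junction probe: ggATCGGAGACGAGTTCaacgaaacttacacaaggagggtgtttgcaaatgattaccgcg

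**Figure D2:**
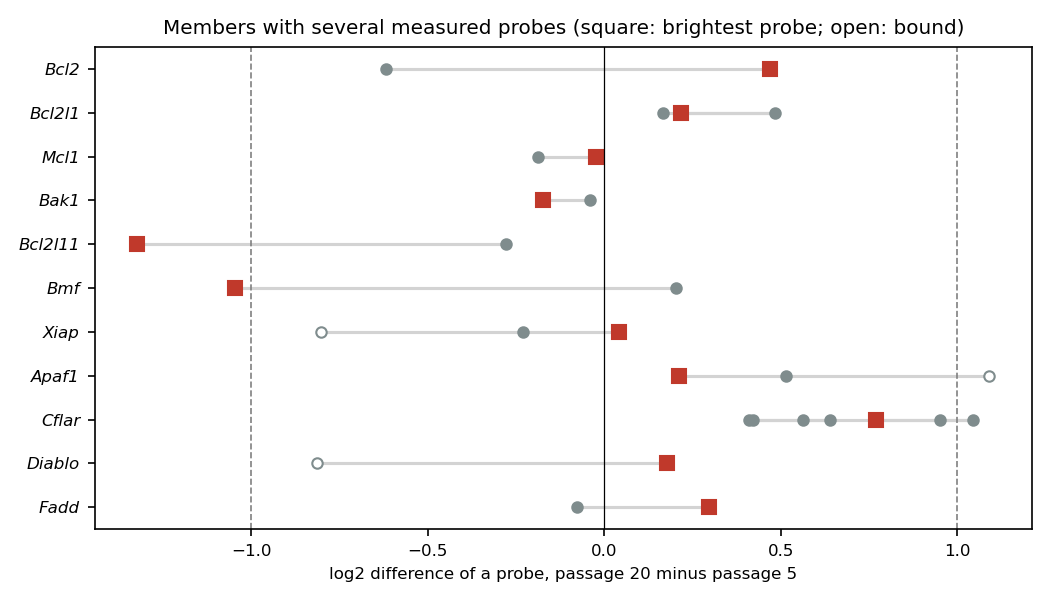
Log2 difference, passage 20 minus passage 5, of each probe above background on at least 1 array, for genes with several such probes. Squares are the brightest probe, which gives the reported value, and open circles are bounds. The probes of Cflar lie together to the right of 0, whereas those of Bcl2, Bmf, Xiap, Diablo and Fadd fall on both sides of it.

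All 3 pore-forming effectors were below 0, and Bax by far the most. Bax was printed on 10 spots per array, so its technical error can be given. Its relative signal over those spots was 5.67 ± 0.187 (SD, n = 10 spots) at passage 20 and 11.3 ± 0.282 (SD, n = 10 spots) at passage 5. The spots ranged from 5.35 to 6.02, with a median of 5.71, at passage 20, and from 10.9 to 11.7, with a median of 11.4, at passage 5. The spots of the arrays therefore did not overlap. Every spot gave nearly the same difference, between -1.03 and -0.96 log2, with a mean of -0.999 and an SD of 0.021. At 1.998-fold lower, Bax stood just short of the 2-fold threshold, and it passed it in 7 of 11 alternative ways of processing the arrays. Of the others, the filter settings and the mean over probes could not move its 1 probe. With flagged spots kept it stayed at -0.995 log2. These repeat spots measure printing and scanning on an array, not the spread between cultures.

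The Bax probe is shown because it alone reports the gene. It is the strand of the messenger RNA over 156 genomic bases, chr7:52721469-52721624 (mm9, minus strand), and thus crosses an exon junction, so that genomic DNA would not match it along its length.
Bax probe: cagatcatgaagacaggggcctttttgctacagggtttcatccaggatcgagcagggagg

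The other effectors differed little. Bok, an effector that works without BAX and BAK, had a relative signal of 2.23 at passage 20 and 2.80 at passage 5 (-0.33 log2). Bak1, the effector that resides on mitochondria, had 5.94 at passage 20 and 6.70 at passage 5 (-0.17 log2), and its other probe differed by -0.04 log2. The Bak1 difference was smaller than the error that the scanner software assigns to a difference of single spots, about 0.20 log2 for signals of this size. Bax, Bok and Bak1 were below 0, and below the median of all genes, in each of the 11 alternatives. Some of these shift every gene alike, which leaves a gene's place against that median nearly unchanged.

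Of the antiapoptotic genes 4 of 7 were measured, and none reached 2-fold. Bcl2l2, which encodes BCL-W, had the largest difference, with a relative signal of 2.28 at passage 20 and 1.30 at passage 5 (0.81 log2, 1.75-fold higher). Bcl2 itself was spotted 10 times, with 1 spot left out for an outlier mark. Its relative signal was 0.528 ± 0.0290 at passage 20 and 0.381 ± 0.0233 at passage 5 (SD, n = 9 spots each), with spots from 0.483 to 0.574 at passage 20 and from 0.342 to 0.415 at passage 5. With the scaling used here the spots did not overlap, and the difference was 0.47 log2. It was 0.16 log2 with median centring and 0.25 log2 with spike-in scaling. A second Bcl2 probe, designed to another transcript, had the opposite sign, with 0.240 at passage 20 and 0.368 at passage 5 (-0.62 log2), so the direction of Bcl2 as a whole is not settled.

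Bcl2l1, the gene of BCL-XL, had a relative signal of 12.1 ± 0.422 at passage 20 and 10.4 ± 0.481 at passage 5 (SD, n = 10 spots each). Its spots ranged from 11.3 to 12.7 at passage 20 and from 9.71 to 11.2 at passage 5. They did not overlap with this scaling, but the difference was small, at 0.22 log2, with its 3 probes between 0.17 and 0.48. It was -0.09 log2 with median centring and 0.002 log2 with spike-in scaling. Mcl1, the short-lived guardian on which hepatocytes also depend, was nearly equal, with 30.1 at passage 20 and 30.6 at passage 5 in relative signal (-0.02 log2), and its other probe differed by -0.19 log2. Bcl2l1 and Bcl2l2 were above the median of all genes in all 11 alternatives. The blood cell paralogs Bcl2a1b and Bcl2a1c, near-identical copies that probes may not tell apart, and Bcl2l10 were above background on neither array.

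**Figure D3:**
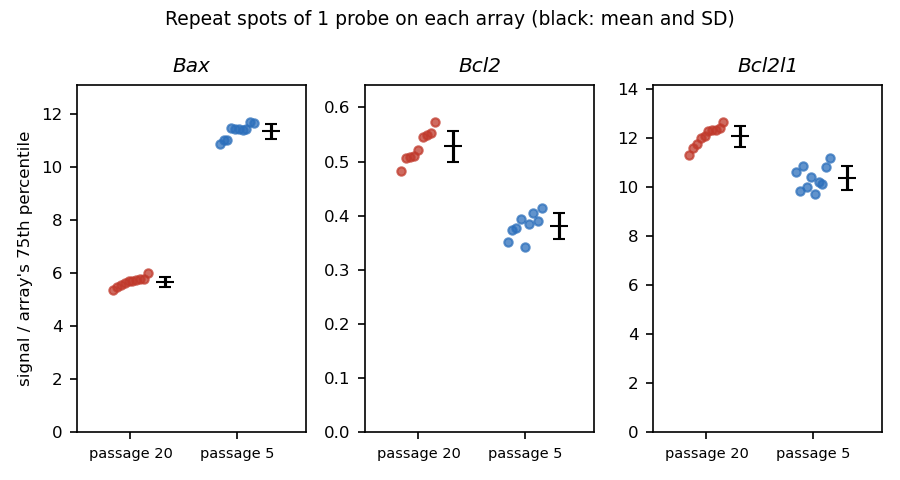
Relative signal (signal divided by the array's 75th percentile) of every repeat spot of 3 probes, passage 20 left of passage 5, with mean and SD over spots in black. Each point is a spot of the same array, not a replicate culture. With the scaling used here, the spots of Bax, Bcl2 and Bcl2l1 do not overlap between the arrays. Another scaling shifts all spots of an array alike, and the small differences of Bcl2 and Bcl2l1 depend on it.

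Among the less studied BCL2-like genes 3 of 4 were measured, and they went in opposite directions. Bcl2l15, which encodes BFK, a small family member with a BH3 region, had the largest difference of the whole set. Its relative signal was 0.305 at passage 20 and 2.34 at passage 5, which is 7.67-fold lower (-2.94 log2), at its only probe on chr3:103642494-103642553 (mm9, plus strand). Bcl2l12, described as an inhibitor of caspases and of p53 in tumour cells, had 1.64 at passage 20 and 0.975 at passage 5 (0.75 log2). Bcl2l13, a protein of the mitochondrial outer membrane that takes part in mitophagy, had 4.25 at passage 20 and 3.86 at passage 5 (0.14 log2). Bcl2l14 was above background on neither array.

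The initiator caspases were all measured, and none differed 2-fold. Casp2, which the PIDDosome activates, had a relative signal of 7.12 at passage 20 and 4.26 at passage 5 (0.74 log2, 1.67-fold higher). Casp9, activated on the apoptosome, had 2.64 at passage 20 and 2.02 at passage 5 (0.39 log2). Casp8, activated at death receptors, had 6.96 at passage 20 and 6.50 at passage 5 (0.10 log2), which is less than the error assigned by the scanner software.

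Casp6, an executioner that cleaves nuclear lamins, had 6.44 at passage 20 and 6.22 at passage 5 in relative signal (0.05 log2). Set against the median of all genes, which removes shifts common to all genes, Casp6 differed by -0.10 to 0.00 log2 and Casp8 by -0.05 to 0.05 over the 11 alternatives.

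Casp4 was the only gene of the set that was at least 2-fold higher at passage 20. It encodes the mouse counterpart of human caspases 4 and 5, often called caspase 11, which senses intracellular lipopolysaccharide and cleaves gasdermin D to cause pyroptosis, an inflammatory death distinct from apoptosis. Its relative signal was 1.29 at passage 20 and 0.288 at passage 5, which is 4.47-fold higher (2.16 log2), at its only probe on chr9:5336645-5336704 (mm9, plus strand). The neighbouring inflammatory caspase gene Casp1, the endoplasmic reticulum-associated Casp12 and the skin caspase Casp14 were above background on neither array. Gasdermin D itself (Gsdmd) differed by 0.36 log2, with 13.4 at passage 20 and 10.4 at passage 5 in relative signal.

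Casp4 is also abundant in macrophages, so markers of blood cells are given beside it. Of 13 leukocyte markers on the array 8 were measured, 1 (Cd14) passed 2-fold upwards and 1 (S100a9) downwards at passage 20, and the summed relative signal was 10.3 at passage 20 and 4.998 at passage 5. Most of that sum was Cd14, with 8.56 at passage 20 and 3.21 at passage 5. The myeloid markers Cd68 and Fcer1g were measured on both arrays, Cd68 with 0.560 at passage 20 and 0.444 at passage 5, and Fcer1g with 0.231 at passage 20 and 0.193 at passage 5. Lyz2 and Csf1r were above background at passage 5 only. Ptprc, Adgre1, Itgam, Tyrobp and Cd79a were above background on neither array. The part of such cells in the Casp4 difference was not tested.

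Of the IAP genes 5 of 6 were measured, none differed 2-fold, and all 5 were above 0, with a median of 0.29 log2. Birc2, Birc3, Birc5 and Birc6 were above the median of all genes in all 11 alternatives, although median centring, which shifts every gene alike, put Birc2, Birc3 and Birc5 below 0, and spike-in scaling put Birc2 there. Birc6, a giant ubiquitin ligase that degrades caspases and DIABLO, had a relative signal of 1.84 at passage 20 and 1.05 at passage 5 (0.81 log2, 1.75-fold higher). Birc2 and Birc3, the ubiquitin ligases cIAP1 and cIAP2 of TNF receptor complexes, differed by 0.20 and 0.29 log2. Birc2 had 0.595 at passage 20 and 0.519 at passage 5, and Birc3 had 1.04 at passage 20 and 0.852 at passage 5 in relative signal. Xiap, the IAP that inhibits caspases directly, had 0.586 at passage 20 and 0.570 at passage 5 (0.04 log2), while its other probes differed by -0.23 log2 and by a bound of -0.80 log2. Xiap was below the median of all genes in 10 of 11 alternatives. Birc7 was above background on neither array.

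Birc5, the gene of survivin, serves chiefly in chromosome segregation and is transcribed in dividing cells. It had a relative signal of 65.4 at passage 20 and 53.7 at passage 5 (0.29 log2). The 12 proliferation markers, all measured, were within 2-fold as well, with a median difference of 0.10 log2 and summed relative signals of 261.9 at passage 20 and 218.7 at passage 5. Of these 12 markers, 7 were above 0 and 5 below it. Mki67 differed by 0.28 log2, whereas Ccnb1 differed by -0.24 and Plk1 by -0.20. Most of the difference between the sums came from Pcna and Mcm6. Pcna had 60.92 at passage 20 and 35.55 at passage 5, and Mcm6 had 73.05 at passage 20 and 55.45 at passage 5.

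The adaptors and antagonists were all measured, and all 4 were above 0. Cflar, Fadd and Apaf1 were above the median of all genes in all 11 alternatives, and Diablo was below it in 1, the mean over probes. Median centring put Fadd, Apaf1 and Diablo below 0, and spike-in scaling put Apaf1 and Diablo there. Cflar, which encodes cFLIP, a caspase 8 look-alike that blocks or tunes caspase 8 at death receptors, had the most probes of the whole set. Its relative signal was 9.03 at passage 20 and 5.30 at passage 5 (0.77 log2, 1.71-fold higher), and all 7 of its probes were higher at passage 20, by 0.41 to 1.05 log2. Fadd, the adaptor between death receptors and caspase 8, had 1.96 at passage 20 and 1.60 at passage 5 (0.30 log2), and its other probe differed by -0.08 log2. Apaf1, the scaffold of the apoptosome, had 0.948 at passage 20 and 0.820 at passage 5 (0.21 log2), and its other probes were higher by 0.52 log2 and by a bound of 1.09 log2. Diablo, the mitochondrial antagonist of IAPs, had 3.75 at passage 20 and 3.32 at passage 5 (0.18 log2), with a second probe at a bound of -0.81 log2.

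The promoters of the genes that differed most are shown so that a reader can compare the sequence before their starts. Each window is the 250 bases before the most upstream RefSeq start (GRCm38.p6), read 5′ to 3′ on the gene's strand. Capitals mark 3 motifs, searched on both strands with overlapping matches counted: the forkhead core GTAAACA, to which FOXO factors bind, with its reverse TGTTTAC, the GC box GGGCGG of SP1, with its reverse CCGCCC, and the TATA box letters TATAAA, with their reverse TTTATA.
Bcl2l11 promoter, chr2:128125788-128126037 (plus strand): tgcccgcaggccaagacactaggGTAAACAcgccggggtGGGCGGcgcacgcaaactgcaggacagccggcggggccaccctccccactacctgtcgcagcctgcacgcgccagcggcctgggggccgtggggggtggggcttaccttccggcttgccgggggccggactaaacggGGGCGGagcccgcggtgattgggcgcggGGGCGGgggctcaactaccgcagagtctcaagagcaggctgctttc
Bbc3 promoter, chr7:16309333-16309582 (plus strand): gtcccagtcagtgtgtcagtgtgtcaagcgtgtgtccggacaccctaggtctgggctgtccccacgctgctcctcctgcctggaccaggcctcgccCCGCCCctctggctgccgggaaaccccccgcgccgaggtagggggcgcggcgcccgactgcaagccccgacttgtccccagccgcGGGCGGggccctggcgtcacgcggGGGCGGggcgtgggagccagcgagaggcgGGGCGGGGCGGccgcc
Bmf promoter, chr2:118549687-118549936 (minus strand): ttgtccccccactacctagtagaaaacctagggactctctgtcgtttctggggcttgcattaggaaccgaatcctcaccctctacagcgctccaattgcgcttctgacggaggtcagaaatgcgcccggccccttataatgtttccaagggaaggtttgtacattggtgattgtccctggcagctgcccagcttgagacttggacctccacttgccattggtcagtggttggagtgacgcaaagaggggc
Bax promoter, chr7:45466899-45467148 (minus strand): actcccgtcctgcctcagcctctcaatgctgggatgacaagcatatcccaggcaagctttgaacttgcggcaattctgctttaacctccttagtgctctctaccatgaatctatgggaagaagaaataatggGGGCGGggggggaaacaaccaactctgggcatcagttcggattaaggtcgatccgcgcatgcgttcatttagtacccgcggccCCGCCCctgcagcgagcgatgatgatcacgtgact
Bcl2l15 promoter, chr3:103832446-103832695 (plus strand): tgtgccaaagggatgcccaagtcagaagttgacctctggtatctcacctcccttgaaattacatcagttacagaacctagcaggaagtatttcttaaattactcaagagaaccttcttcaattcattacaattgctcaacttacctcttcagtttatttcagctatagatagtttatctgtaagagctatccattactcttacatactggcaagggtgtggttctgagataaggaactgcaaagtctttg
Casp4 promoter, chr9:5308599-5308848 (plus strand): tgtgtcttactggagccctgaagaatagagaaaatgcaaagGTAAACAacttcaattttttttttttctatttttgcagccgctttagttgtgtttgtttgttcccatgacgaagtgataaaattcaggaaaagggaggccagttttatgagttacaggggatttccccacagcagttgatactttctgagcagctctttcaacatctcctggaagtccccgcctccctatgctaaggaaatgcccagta

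These windows differed in makeup. That of Bcl2l11 was 72% G and C and held 3 GC boxes, and that of Bbc3 was 76.4% G and C and held 5. The Bax window held 2 GC boxes at 54% G and C. The windows of Bmf (54%) and Bcl2l15 (38.8%) held none of these letters. The forkhead core stood once in the window of Bcl2l11, ending 221 bases before the start, and once in that of Casp4 (41.6% G and C), ending 203 bases before the start. Bbc3 had it in the window of a second RefSeq start, ending 161 bases before that start, within the 25 bases of chr7:16310085-16310109 (GRCm38.p6, plus strand).
Bbc3 second window, forkhead core in capitals: tggcgggttTGTTTACaaacaatgg

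A RefSeq window existed for 37 of the 42 genes, 50 windows in all, and the forkhead core was in 4 of them, from 3 genes: Bcl2l11, Bbc3 and Casp4, whose 2 windows overlap. The 2 Casp4 windows hold the same site, so the 4 windows are not 4 separate sites. A GC box was in 27 of the 50 windows and TATAAA in 3. Of all 32851 RefSeq windows of this length, 3.17% held the forkhead core, 32.7% held a GC box and 12.4% held TATAAA. Of the genes with the core, Bcl2l11 and Bbc3 were lower at passage 20 and Casp4 was higher. A part of forkhead factors in these differences was not tested. A match of letters describes the sequence only and shows no binding.

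The calls beside the threshold depended in part on how the arrays were processed. Over 11 alternatives (background correction, scaling, filters and the choice of probe), Bcl2l15 and Bbc3 were at least 2-fold lower in all 11, with ranges of -3.25 to -2.29 and of -1.47 to -1.16 log2. Casp4 was at least 2-fold higher in all 11, by 1.67 to 2.17 log2. Bcl2l15, Bbc3 and Casp4 have 1 probe each, above background on both arrays. The mean over probes and the filter settings therefore could not move them. Bcl2l11 kept its call in 10, without the mean over probes, and Bmf in 9, without the mean over probes and normexp background correction (-0.94 log2).

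**Figure D4:**
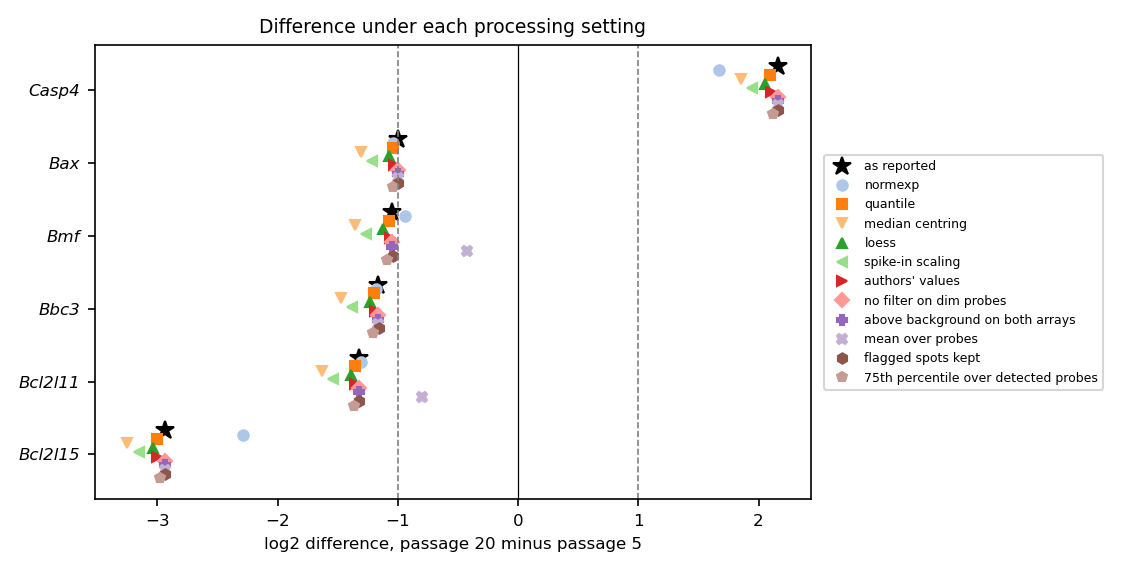
Log2 difference, passage 20 minus passage 5, of the 5 genes called at 2-fold and of Bax, as reported (black star) and under each of 11 other processing settings (coloured marks). Dashed lines mark 2-fold. Bcl2l15, Bbc3 and Casp4 stay past 2-fold throughout, while Bcl2l11 and Bmf move inside it with the mean over probes (-0.80 and -0.42), and Bax lies at the line. Bcl2l15, Bbc3, Casp4 and Bax have 1 probe each, which the mean over probes cannot move.

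Scaling moved all genes together. The median difference of all genes was 0.07 log2 as reported, -0.24 with median centring and -0.15 with scaling to the external spike-in RNA. Taken relative to that median, Bax differed by -1.15 to -1.05 log2 over the 11 alternatives, Bbc3 by -1.31 to -1.21 and Cflar by 0.61 to 0.72. Bax, Bak1, Bok, Bbc3, Bcl2l11, Bmf, Pmaip1, Bcl2l15 and Mcl1 were below the median of all genes in each of the 11 alternatives. Above it in each were Bcl2l1, Bcl2l2, Bcl2l12, Bid, Casp2, Casp4, Casp9, Birc2, Birc3, Birc5, Birc6, Apaf1, Cflar and Fadd. Median centring, spike-in scaling and the 75th percentile over detected probes shift every gene alike. Relative to the median of all genes they nearly repeat the reported value, -1.07 log2 for Bax in each case. The 11 alternatives are thus not 11 separate checks of a gene's place against that median.

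The error model of the scanner software gives another yardstick. It assigns a difference of a measured gene of this set an error of 0.204 to 0.440 log2, most of it a preset share of the signal. Of the 32 genes, 14 differed by more than 2 such errors: 5 below 0 (Bax, Bbc3, Bcl2l11, Bmf and Bcl2l15) and 9 above 0 (among them Bcl2, Bcl2l2, Bid, Bcl2l12, Casp2, Casp4, Birc6 and Cflar). Another 11 differed by less than 1 error, among them Mcl1, Bak1, Casp6, Casp8 and Xiap. This error covers the array measurement and not the difference between cultures. The counts were not set against the share over all genes, so they do not set this group of genes apart.

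Genes around this core were read from 2 further lists. Of 27 genes of the death receptor pathway 22 were measured, 4 passed 2-fold upwards at passage 20 and none downwards (3.26% and 5.74% of all genes did), with a median of 0.37 log2. Tnfaip3, the gene of A20, a brake on NF-kappaB signalling and cell death, had a relative signal of 1.94 at passage 20 and 0.594 at passage 5 (3.27-fold higher). Mlkl, the executor of necroptosis, had 3.23 at passage 20 and 1.15 at passage 5 (2.81-fold higher). Ripk3, the kinase that activates MLKL, had 12.6 at passage 20 and 6.19 at passage 5 (2.03-fold higher). Tnfrsf10b, the mouse TRAIL receptor, had 4.09 at passage 20 and 1.96 at passage 5 (2.09-fold higher). The ligand genes Fasl, Tnfsf10 and Tnf were above background on neither array. Tnfrsf10b and Ripk3 were close to the threshold. Ripk3 fell inside it under every other scaling and background correction, from 0.71 log2 with median centring to 0.997 with the authors' values. Tnfrsf10b fell inside it with median centring (0.75), spike-in scaling (0.85), the mean over probes (0.90), normexp (0.95) and loess (0.99).

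Of 41 genes of mitochondrial release and of execution 40 were measured, and none was called at 2-fold (9% of all genes were, in either direction), with a median of 0.06 log2. Dffb, above background at passage 5 only, has a bound and may differ more. The farthest below 0 were the membrane protein gene Tmbim1 (-0.82 log2), the nuclear lamin gene Lmnb1 (-0.75) and the co-chaperone gene Bag3 (-0.69). The farthest above 0 was the gene of the XIAP-associated factor, Xaf1 (0.54). Tmbim1 passed 2-fold with median centring (-1.13 log2) and spike-in scaling (-1.03), and Lmnb1 with median centring (-1.07). Cycs, the gene of cytochrome c, differed by 0.10 log2.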

How the data were processed

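Per the labels' protocols, total RNA of hepatoblasts at passage 20 and passage 5 was amplified with Cy3 label and put on 1 Agilent array each. Per the file headers, the deposited intensity of each spot came from Agilent Feature Extraction 10.7.3.1 with background subtraction, detrending and surrogate values within noise, and deposited flags mark outlier, saturated and well-above-background spots. The log2 values the authors deposited served as an alternative only; how they were made is not given in the sources used.

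Control spots were removed, and outlier spots (69 at passage 20, 73 at passage 5) from both arrays. A probe's log2 signal is the mean over its spots less the array's 75th percentile over 41158 gene probes. A gene took its brightest probe. Where only 1 array was above background, the difference is a bound against the lowest value well above background on the dim array (-3.17 log2 at passage 20, -3.32 at passage 5). RefSeq (GRCm38.p6) gave no other name for any of the 70 probes. Probe positions are the files' (mm9); exons and UTRs were not looked up here.

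The members, lists and motifs were chosen with earlier results of these data known. Some members enter the counts but are not reported here; the others are all accounted for, with up to 4 genes of largest difference per further list; Gsdmd, Cycs, the death receptor ligands and single markers were named after their values were seen. No test could be made with 1 array per passage, whose number limits the precision. The steps were tested on simulated data (Python 3.11.15, pandas 2.3.3). Alternatives used R 4.3.3 and limma 3.58.1 (normexp with offset 50, quantile, loess). The 75th percentile of detected probes and the median without Bad were added after seeing the data.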

Additional observations from a re-analysis of the deposited data

How the results depend on the processing

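No paired analysis was possible because each passage has 1 array and the labels give no replicate numbers, and for the same reason no replicate could be left out. Among the 42 genes, 1 higher and 4 or 5 lower genes were counted under every scaling. Over all genes the lower count moved, from 677 of 11798 as reported to 1127 with median centring. A steady count in the set is therefore no result about the set. The set's count of lower genes was 2 with the mean over probes (657 of 11810 over all genes) and 1 at 4-fold (161 of 11798). Its count of higher genes was 4 with no filter on dim probes (1286 of 20054 over all genes) and 6 at 1.5-fold (1230 of 11798).

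The members' median difference, 0.19 log2 as reported, was 0.14 with normexp, 0.13 with quantile normalization, 0.10 with loess, 0.14 with the authors' values, 0.10 with the mean over probes and 0.15 with the 75th percentile over detected probes. It was -0.12 with median centring and -0.029 with spike-in scaling, settings that by construction shift every gene alike. Without Bad it was 0.20.

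Over all genes, the reported 385 higher and 677 lower genes became 252 and 398 with normexp, 193 and 1127 with median centring, 230 and 970 with spike-in scaling, 1286 and 1286 with no filter, 266 and 428 with both arrays required above background, 1230 and 1388 at 1.5-fold, and 59 and 161 at 4-fold. Higher genes were 300 with quantile normalization and 267 with loess, against 799 and 843 lower. The cause of these moves was not tested, except that filters and thresholds change which genes count.

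Signal over background limits the 10 genes above it on neither array, for which no difference can be read. Dim probes, such as the second probes of Bcl2l11 and Bmf, give less certain sizes.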
